A study of Rattus norvegicus with 9 samples.

Results

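Messenger RNA of gastric lymphatic vessels, the collecting vessels that drain the stomach wall, was compared between unstressed rats and rats that went through water immersion stress and then received Banxia Xiexin decoction (BXD), a Chinese herbal decoction. The comparison used 6 of the 9 libraries of the series, 3 control and 3 BXD, and all 14643 of 18964 genes that passed a filter on low counts. It describes what still differed from unstressed vessels after stress and decoction. All animals were male Sprague-Dawley rats of wild-type genotype, fasted for 12 h. Control rats, labelled as blank, were not stressed and received distilled water by gavage. BXD rats were kept singly for 4 h in a pool with water 15 cm deep at 22 °C, and 30 min after leaving it received the decoction at 10 ml per kg. Model rats, whose 3 libraries stand beside the comparison, went through the same pool and received a gavage without decoction, saline by their label and distilled water by the protocol. The study had 6 rats in a group, and the labels do not tie a library to a rat, so the spread behind every p-value is that among these libraries, which may be technical. The libraries of unstressed rats were all without decoction, so in BXD against control the stress and the decoction cannot be told apart. The direct contrast of BXD with model is given beside some of the results where model and BXD lay apart. Where it is not given, unequal calls against control do not show a difference between BXD and model.

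Collecting lymphatic vessels are lined by lymphatic endothelium, which carries the factor Prox1 and the receptor Flt4, and are wrapped by smooth muscle whose rhythmic contraction pumps lymph. They lie in fat and connective tissue, so a dissected vessel brings adipocytes, fibroblasts, nerve fibres and blood cells with it. Acute stress releases glucocorticoids from the adrenal gland. In many tissues these raise metallothioneins, small cysteine-rich proteins that bind zinc and copper, together with the FoxO factors, cell cycle inhibitors and the clock gene Per1.

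Every library held Prox1, Flt4, Pdpn and Lyve1, the defining markers of lymphatic endothelium, with Prox1 at 68.1, 100.2 and 89.7 CPM (counts as a rate per library, scaled for size and composition) in control replicates 1 to 3 and 32.8, 73.8 and 55.6 CPM in BXD replicates 1 to 3. Of the 17 gastric mucosa markers with counts deposited, 6 passed the filter, and the mean log2 CPM of those lay between 0.56 and 0.89 in control and between 0.31 and 0.78 in BXD. Library totals ran from 12313813 to 13455705 counts. Principal component analysis of log2 CPM gave a first component with 41.8% of the variance, on which the control libraries lay at -64.4 to -57.3 and the BXD libraries at 14.8 to 37.1. The second component, with 20.03%, parted BXD replicate 1 (-55.3) and BXD replicate 3 (-42.7) from BXD replicate 2 (4.98).

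Skeletal muscle transcripts set BXD replicates 1 and 3 apart, and the genes described below whose call was lost with BXD replicate 2 alone are listed after the results. Of 31 striated muscle genes with counts deposited, 27 passed the filter, which a gene high in those libraries alone can do, and 25 of the 27 were called higher in BXD than in control. Their mean log2 CPM was 7.80 in BXD replicate 1 and 6.93 in replicate 3, but 1.30 in replicate 2, 4.17 in model replicate 2 and 0.43 to 0.60 in the controls. Ckm, the creatine kinase of muscle, had 1.77, 0.844 and 1.33 CPM in control, 1.84, 53.7 and 0.608 CPM in model and 853, 7.85 and 483 CPM in BXD, a log2 fold change of 8.41 (SE 2.15) whose call was lost without control replicate 1, 2 or 3 (largest adjusted p = 0.0759). Myot, a protein of the Z disc, had 0 counts in the 3 control libraries. With BXD replicate 2 as the lone BXD library 26 genes of the list were tested. Their median log2 fold change was 1.28, against 7.45 for the 27 with all 3. Among called genes with a symbol that is no placeholder, a mean of at least 1 CPM and no overlap between the groups, those with the 12 largest rises were all far higher in BXD replicates 1 and 3 than in replicate 2, and Myh1, Ttn, Xirp2, Mylpf and Myh4 of them are on the list. They were Myh1, Trim54, Ttn, Xirp2, Smpx, Tceal7, Myoz2, Cox6a2, Mylpf, Myh4, Nrap and Ckmt2, and each lost its call without any 1 control replicate. Lmod2 and LOC100909761, with 0 counts in control and 1223 and 907 counts in BXD, were outside this rule, the first for overlapping groups and the other for its placeholder symbol. Trim54 and Ckmt2 lost it also without BXD replicate 3, and Smpx also without BXD replicate 1 or 3 or model replicate 1. The part of this signal in the other results was not tested beyond 2 fits that were added after the data were seen. In the first, BXD replicate 2 stood alone and was assumed to vary like the other groups, and in the second the mean log2 CPM of the striated muscle list entered as a covariate.

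**Figure D1:**
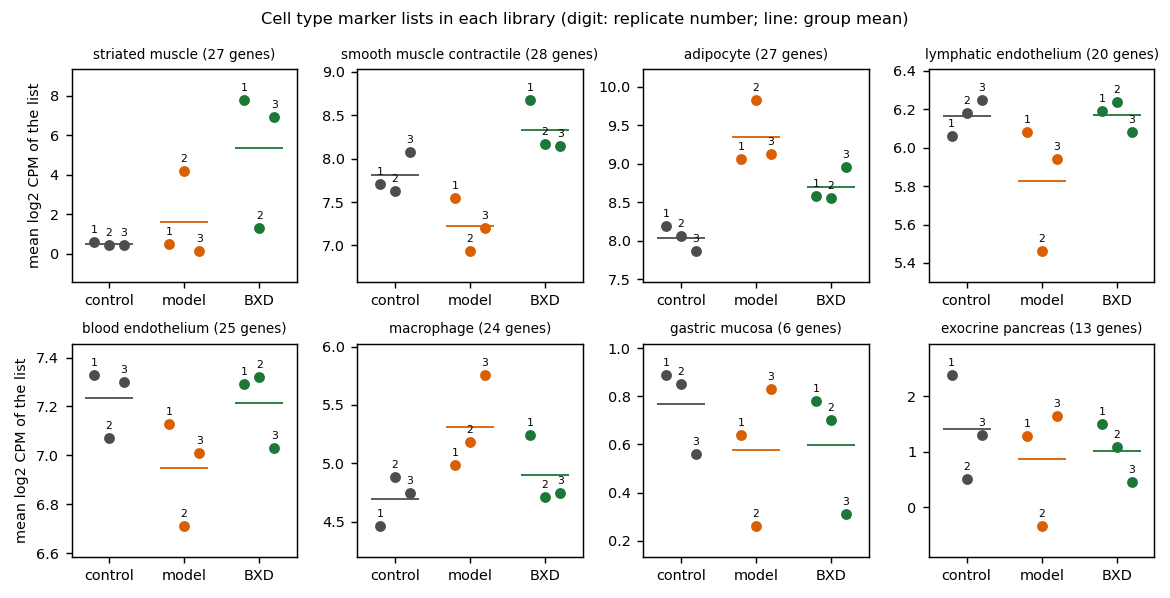
Mean log2 CPM of 8 marker lists (vertical axis) in each of the 9 libraries, by group; digits are replicate numbers and lines are group means. Striated muscle markers were high in BXD replicates 1 and 3 (7.80 and 6.93) and not in BXD replicate 2 (1.30), while the lymphatic endothelium and gastric mucosa lists overlapped between control and BXD.

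Of the 14643 genes tested, 4444 (30.3%) differed between BXD and control at a Benjamini-Hochberg adjusted p under 0.05 by edgeR's quasi-likelihood test, and such genes are referred to as called. The calls divided into 2355 genes higher in BXD (16.1%) and 2089 lower (14.3%), and 1550 (10.6%) were called and differed at least 2-fold. Counts of list members called below are to be read against these shares of all genes. The 3 BXD and 3 control libraries did not overlap for 7121 genes (48.6%), so a lack of overlap was common. For model against control, which shares the control libraries, 6177 genes were called (42.2%), 3161 higher (21.6%) and 3016 lower (20.6%). BXD against model called 9 genes (0.0615%) by edgeR, with 3055 at an unadjusted p under 0.05, while DESeq2 called 1129 and limma-voom 3. The split of BXD against control depended on the scaling. With trimmed means of M-values 53% of calls were higher, after upper quartile scaling 37.2% and by library size alone 27.6%, while the median log2 fold change of all genes moved from -0.02 to -0.14 and -0.23. With BXD replicate 2 alone 2352 genes were called and with the striated muscle covariate 1869. Leaving out control replicate 1, 2 or 3 gave 2852, 2728 and 2813 calls, against 4693 without BXD replicate 1. In the text below, a called gene kept its call when any 1 of the 9 libraries was left out unless the loss is stated.

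**Figure D2:**
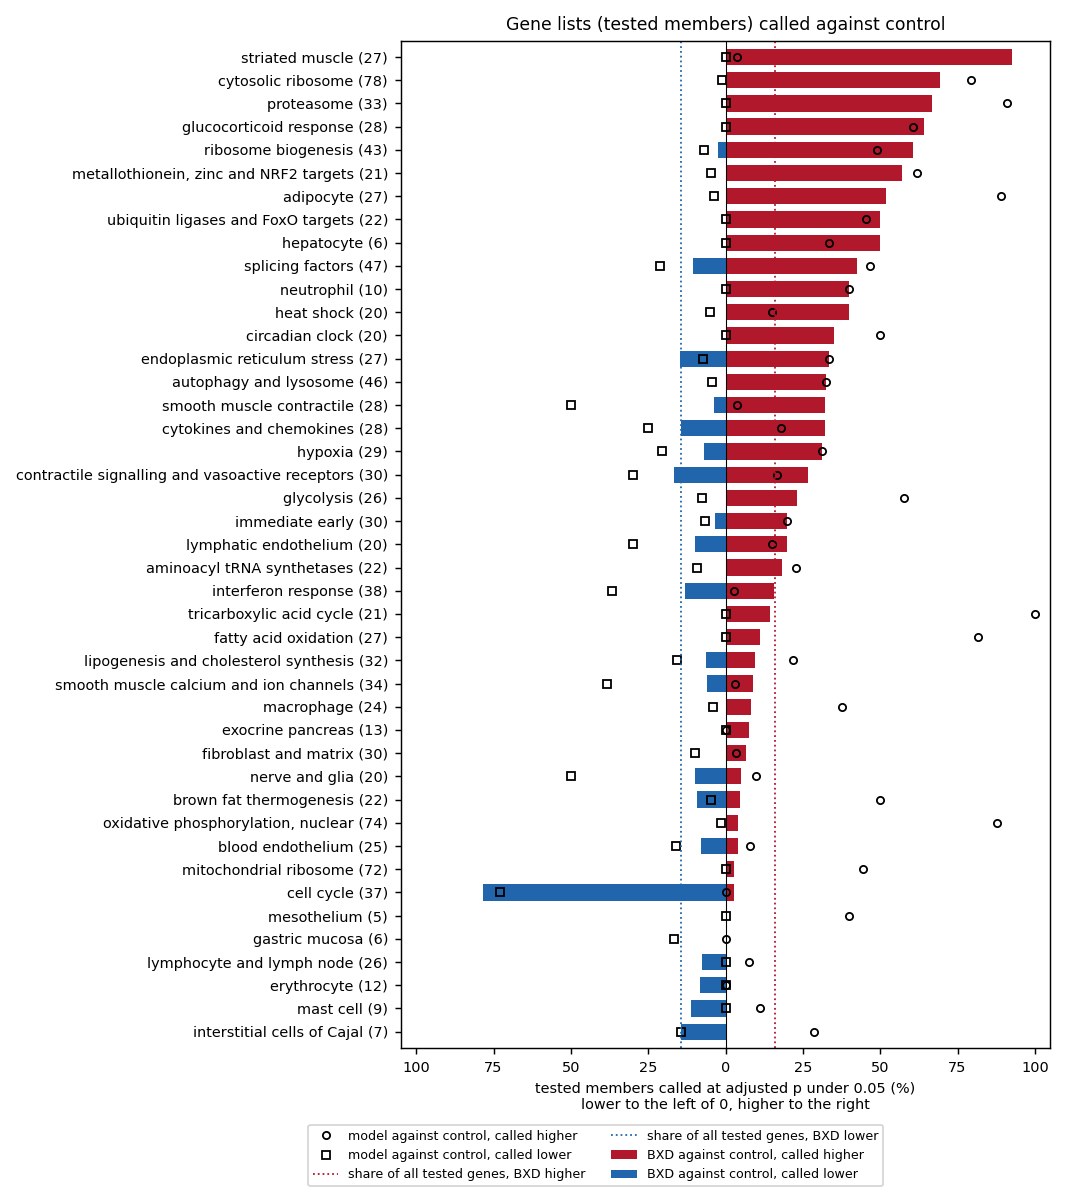
Share of the tested members of each gene list (number in brackets) called higher to the right of 0 or lower to the left, in percent; bars are BXD against control, open symbols are model against control, and dotted lines are the shares of all tested genes for BXD (16.1% higher, 14.3% lower). Cell cycle genes lay far to the left in both contrasts, with 29 of 37 called lower in BXD, while the tricarboxylic acid cycle had 21 of 21 called higher in model and 3 of 21 in BXD.

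The metallothionein genes Mt1 and Mt2A rose in every BXD library. Their promoters are shown because both hold many matches to a loose form of the motif through which zinc induces such genes. Mt1 (gene 24567, chr19:11301986-11303133 in Rnor_6.0, the build of the counts) and Mt2A (gene 689415, chr19:11307966-11308740) are neighbours. The promoters are RefSeq's on another build, GRCr8, from 250 bases before to 50 bases after the start, both on the minus strand, chr19:10832926-10833225 for Mt1 and chr19:10838659-10838958 for Mt2A. Capitals mark matches on either strand to TGCNCNC, a loose form of the metal response element that takes any base at N, so not every match need be such an element.
Mt1 promoter: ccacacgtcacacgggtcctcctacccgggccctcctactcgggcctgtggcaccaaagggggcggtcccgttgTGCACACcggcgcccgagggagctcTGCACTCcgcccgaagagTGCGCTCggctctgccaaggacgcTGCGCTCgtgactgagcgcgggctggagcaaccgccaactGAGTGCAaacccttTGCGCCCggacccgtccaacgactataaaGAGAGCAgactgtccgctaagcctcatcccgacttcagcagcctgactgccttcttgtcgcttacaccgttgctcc
Mt2A promoter: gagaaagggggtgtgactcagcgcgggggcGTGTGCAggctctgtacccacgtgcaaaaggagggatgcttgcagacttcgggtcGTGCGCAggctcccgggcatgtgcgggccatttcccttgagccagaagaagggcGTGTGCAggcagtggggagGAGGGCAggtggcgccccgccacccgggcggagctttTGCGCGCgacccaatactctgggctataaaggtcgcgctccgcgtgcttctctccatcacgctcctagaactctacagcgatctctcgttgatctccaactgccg
The Mt1 promoter held 7 matches and the Mt2A promoter 5. Among 33469 RefSeq promoters of the same length 49.6% held at least 1 match, 0.669% at least 5 and 0.108% at least 7. Both promoters were picked for their matches, so these shares are no test of them. A match describes the letters and is not evidence of a bound site.

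Mt1 had 16.0, 18.3 and 26.0 CPM in control replicates 1 to 3 and 1366, 1069 and 695 CPM in BXD replicates 1 to 3, so each BXD library exceeded each control library many times over. Its log2 fold change was 5.70 (adjusted p = 0.000146, SE 0.35), a 51.9-fold rise. Mt2A had 14.6, 16.1 and 25.6 CPM in control and 1154, 1076 and 703 CPM in BXD, a log2 fold change of 5.70 (adjusted p = 0.000146, SE 0.34). BXD replicate 2, the library low in striated muscle genes, lay between the other two in both genes, and the adjusted p with it alone was 0.0019 for Mt1 and 0.00237 for Mt2A. On the deposited TPM scale, which divides by gene length and so allows levels of different genes to be compared, Mt1 moved from rank 511 with a mean of 283.8 to rank 2 with a mean of 12361, and Mt2A from rank 525 to rank 3. Hba1, a haemoglobin chain of red blood cells, ranked 1 in both groups. In the model libraries Mt1 had 627, 373 and 447 CPM, and BXD exceeded model by a log2 fold change of 1.11 (95% interval 0.47 to 1.76, adjusted p = 0.111), which did not pass the test. Reads of these closely related genes may be divided uncertainly between them.

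Of the 21 tested genes of the metallothionein, zinc and NRF2 list 12 were called higher and 0 lower, with a median log2 fold change of 0.66 beside -0.02 over all genes, and 13 and 1 in model against control. The counts varied little, with 11 higher with BXD replicate 2 alone, with the striated muscle covariate and with library size alone. Slc39a14, a zinc and iron importer, had 79.7, 62.3 and 88.7 CPM in control and 383, 410.1 and 303 CPM in BXD, a log2 fold change of 2.25 (adjusted p = 0.000482, SE 0.18). NRF2, encoded by Nfe2l2, is the factor that switches on antioxidant genes. Hmox1, which breaks down haem, had 22.6, 26.2 and 23.8 CPM in control and 64.1, 199 and 144 CPM in BXD, a log2 fold change of 2.49 (adjusted p = 0.00143, SE 0.34), with BXD replicate 1 the lowest of its group and no overlap with control. Txnrd1, thioredoxin reductase, had 76.7, 74.5 and 79.7 CPM in control and 218, 214 and 169 CPM in BXD, a log2 fold change of 1.38 (adjusted p = 0.000515, SE 0.12). Nqo1, another classic NRF2 target, was not called (0.17, 95% interval -0.39 to 0.74). In model the log2 fold change against control was 1.30 for Hmox1 and 0.81 for Txnrd1, and neither differed between BXD and model at the threshold (adjusted p = 0.121 and 0.0959).

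**Figure D3:**
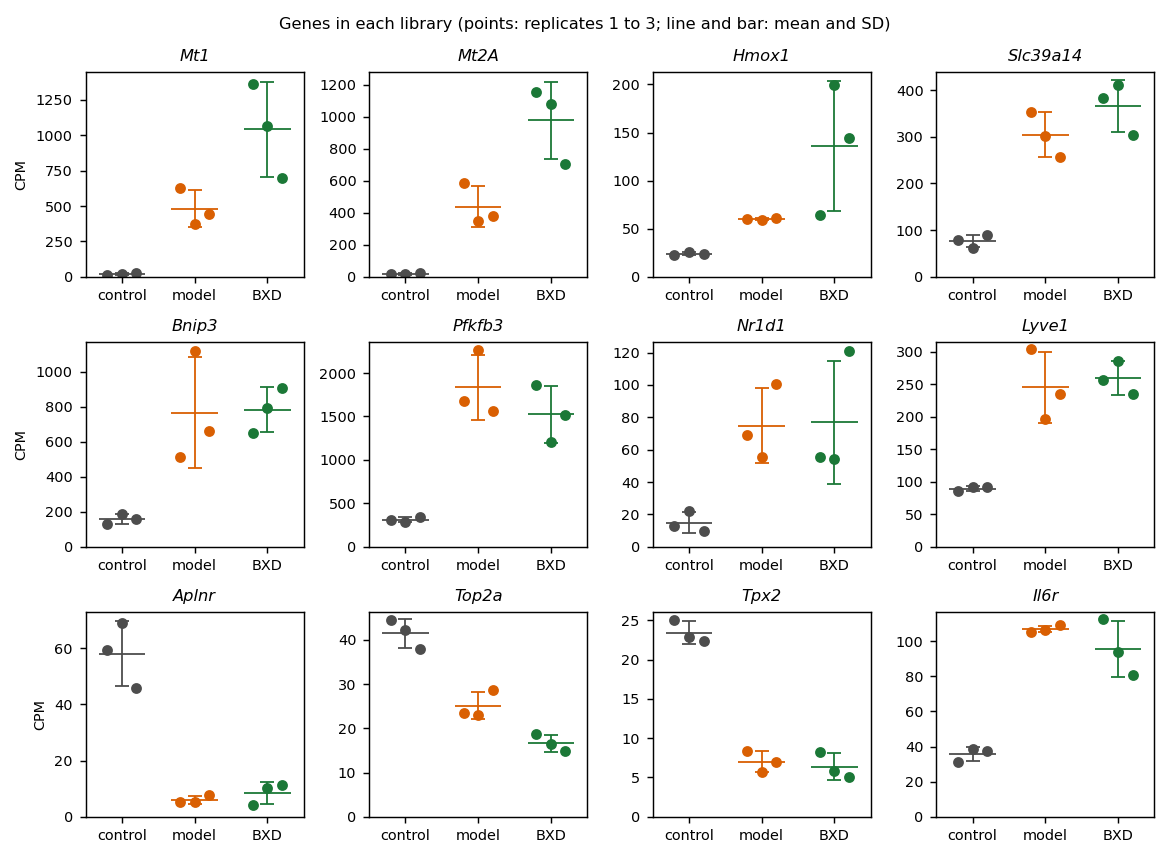
CPM (vertical axes, each from 0) of 12 genes in the 9 libraries by group; points are replicates 1 to 3, and lines with bars are the mean and SD. BXD and control did not overlap for Mt1, Mt2A, Hmox1, Slc39a14, Bnip3, Pfkfb3, Nr1d1, Lyve1, Aplnr, Top2a, Tpx2 or Il6r; Top2a, Tpx2 and Aplnr were lower in BXD and the other 9 higher.

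Glucocorticoid responsive genes stayed above control. Of 28 tested, 18 were called higher and 0 lower (median 1.00), beside 17 and 0 in model against control, and Mt1 and Mt2A belong to this list too. With BXD replicate 2 alone 11 were called higher, with the striated muscle covariate 9, and with library size alone 15 higher and 1 lower. Il1r2, the decoy receptor that captures interleukin 1, had 0.781, 0.844 and 0.421 CPM in control and 10.6, 8.71 and 6.72 CPM in BXD, a log2 fold change of 3.65 (adjusted p = 0.000515, SE 0.33). Fkbp5, the cochaperone that dampens the glucocorticoid receptor, had 48.6, 40.8 and 109 CPM in control and 171, 445 and 553 CPM in BXD, a log2 fold change of 2.56 (adjusted p = 0.00681, SE 0.51). The spread within both groups was wide for Fkbp5, and the groups did not overlap. Zbtb16, a transcriptional repressor, rose by 1.68 (SE 0.40), a call lost without control replicate 1 (largest adjusted p = 0.0529). Sgk1, a kinase that glucocorticoids induce, rose by 0.85 (adjusted p = 0.0123). Tsc22d3, which encodes GILZ and is among the most widely used glucocorticoid markers, was not called (0.37, 95% interval -0.16 to 0.90), its control libraries being uneven at 306, 190.2 and 394 CPM. Per1, a target in common with the clock, had 713, 238 and 201 CPM in BXD and was not called (adjusted p = 0.0909), but was called higher without BXD replicate 3 and with DESeq2.

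FoxO factors turn on genes of protein breakdown and restrained growth when insulin signalling is low, as in fasting. Of 22 ubiquitin ligases and FoxO targets 11 were called higher and 0 lower (median 0.63), beside 10 and 0 in model, falling to 6 with library size alone, 3 with BXD replicate 2 alone, 5 without any 1 control replicate and 7 without BXD replicate 1. Foxo3 had 10.5, 8.90 and 13.4 CPM in control and 42.0, 32.6 and 27.3 CPM in BXD, a log2 fold change of 1.64 (adjusted p = 0.00115, SE 0.20). Insr, the insulin receptor, had 29.9, 28.8 and 23.8 CPM in control and 68.5, 93.0 and 66.7 CPM in BXD, a log2 fold change of 1.47 (adjusted p = 0.000864, SE 0.17). Both held with BXD replicate 2 alone (adjusted p = 0.0103 and 0.00657). Txnip, an inhibitor of glucose uptake, rose by 0.74 (adjusted p = 0.00328). Trim63, a ubiquitin ligase of striated muscle, followed the muscle signal with 79.0, 2.67 and 34.6 CPM in BXD, and its call was lost without control replicate 1, 2 or 3 (largest adjusted p = 0.0561). Fbxo32, the other well known ligase of muscle wasting, was not called (0.68, 95% interval 0.03 to 1.34).

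The clock repressor genes Nr1d1, Nr1d2 and Ciart rose. Of the clock list as a whole 35% were called, all of them higher, against 30.3% of all genes (16.1% higher and 14.3% lower). The circadian clock is a loop in which Arntl and its partner drive Per, Cry and Nr1d genes through the E-box CACGTG, and their products feed back. Of 20 clock genes 7 were called higher and 0 lower (median 0.44), beside 10 and 0 in model; scaling by the upper quartile or by library size each added 1 lower call, and BXD replicate 2 alone left 3 higher, the covariate 2 and any 1 control replicate left out 4. Nr1d1, the repressor also known as REV-ERB alpha, had 12.6, 22.1 and 9.88 CPM in control and 55.8, 54.4 and 121 CPM in BXD, a log2 fold change of 2.37 (adjusted p = 0.00374, SE 0.41). Nr1d2, its close relative, rose by 1.70 (adjusted p = 0.00298, SE 0.28). Ciart, a repressor of Arntl activity, was near the floor in control at 0.71, 0.455 and 0.35 CPM and reached 6.76, 2.12 and 3.09 CPM in BXD, a log2 fold change of 2.96 (adjusted p = 0.00491, SE 0.55). A level of 3 counts is 0.195 to 0.269 CPM in these libraries. With BXD replicate 2 alone the adjusted p was 0.0322 for Nr1d1 and 0.055 for Ciart. Arntl (0.21, 95% interval -0.29 to 0.70) and Dbp (-0.22, 95% interval -1.13 to 0.68), an output gene driven through E-boxes, were not called. No time of day for taking the vessels appears in the labels.

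The Ciart promoter is printed because its gene rose and it holds several E-boxes. It is RefSeq's on GRCr8, chr2:186112197-186112496 on the minus strand, 300 bases from 250 before to 50 after the start, and capitals mark CACGTG, which reads the same on both strands.
Ciart promoter: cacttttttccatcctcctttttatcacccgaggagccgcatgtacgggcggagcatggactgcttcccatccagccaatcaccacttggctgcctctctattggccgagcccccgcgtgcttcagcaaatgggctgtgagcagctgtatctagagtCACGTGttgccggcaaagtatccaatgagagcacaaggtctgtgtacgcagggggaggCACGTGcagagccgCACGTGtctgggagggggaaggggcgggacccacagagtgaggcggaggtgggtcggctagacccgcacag
It held 3 E-boxes, and 0.0568% of the 33469 promoters held at least 3, while 6.42% held at least 1. The promoter was picked for its E-boxes, so these shares are no test of it. Of the 2 promoters RefSeq gives for Nr1d1, 1 held 1 match and the other 0 in this window.

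Genes of the hypoxia response rose in part, with 37.9% called against 30.3% of all genes (16.1% higher and 14.3% lower). Of 29 tested, 9 were called higher and 2 lower, beside 9 and 6 in model, and after scaling by the upper quartile or by library size alone 7 were called lower. The counts without control replicate 2 were 5 higher and 1 lower, and 1 was called lower without control replicate 3 or BXD replicate 2 or 3. Bnip3, a mitophagy receptor that HIF-1 induces, had 128, 188 and 159.8 CPM in control and 650.1, 792 and 908 CPM in BXD, a log2 fold change of 2.30 (adjusted p = 0.00115, SE 0.29). Pfkfb3, whose product drives glycolysis through fructose-2,6-bisphosphate, had 308, 283 and 347 CPM in control and 1862, 1206 and 1512 CPM in BXD, a log2 fold change of 2.29 (adjusted p = 0.000515, SE 0.20). Hif1a itself rose by 1.02 (adjusted p = 0.000761, SE 0.11) and Ndrg1 by 1.004. These 4 genes held with BXD replicate 2 alone, with adjusted p between 0.00756 and 0.0288. Other HIF-1 targets gave other values. Vegfa (-0.73, 95% interval -1.30 to -0.17), called lower without BXD replicate 1 or model replicate 2, with upper quartile or library size scaling (smallest adjusted p = 0.0109), DESeq2, limma-voom and the covariate, and Ldha (0.35, 95% interval -0.21 to 0.92) were not called, P4ha1 fell by 0.67, and Car9, low throughout, fell by 1.59, a call lost without control replicate 1, 2 or 3 or BXD replicate 1, 2 or 3 or model replicate 3 (largest adjusted p = 0.138). Of 26 glycolysis genes 6 were called higher (23.1%, against 16.1% of all genes) and 0 lower, beside 15 and 2 in model. Without control replicate 2 or 3, 3 were called. Hk1, the widespread hexokinase, rose by 0.68 (adjusted p = 0.0105), and Slc2a1, the basal glucose transporter, by 0.91, a call lost without control replicate 2 or 3 (largest adjusted p = 0.0646).

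Genes that make ribosomes were higher in BXD than in control. Of 43 ribosome biogenesis genes 26 were called higher and 1 lower (median 0.45), beside 21 and 3 in model, with 19 and 0 with BXD replicate 2 alone, 18 and 1 with the covariate and 16 and 4 with library size alone. Wdr43, a factor of early ribosomal RNA processing, had 43.8, 38.6 and 42.5 CPM in control and 107, 111 and 101 CPM in BXD, a log2 fold change of 1.35 (adjusted p = 0.000262, SE 0.09). Gnl3, which encodes nucleostemin, rose by 1.24 (SE 0.11), Utp18 by 1.10 (SE 0.12) and Ncl, the nucleolin gene, by 0.69 (SE 0.09). Each of the 3 BXD libraries exceeded each control library for all 4. Polr1a, the largest subunit of RNA polymerase I, was the member that fell, by 0.55, a call lost without control replicate 1 or 3 (largest adjusted p = 0.0622). Fbl, the methyltransferase fibrillarin, was not called (0.12, 95% interval -0.19 to 0.42).

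Of 78 cytosolic ribosomal protein genes 54 were called higher and 0 lower with a median of 0.37, but the count was 12 after scaling by the upper quartile, 2 with library size alone, 4 higher and 1 lower with BXD replicate 2 alone, between 8 and 18 without control replicate 1 or 2 or BXD replicate 2 or 3, and 34 without BXD replicate 1. Rpl12, a protein of the large subunit, had 174, 216 and 219 CPM in control and 431, 494 and 396 CPM in BXD, a log2 fold change of 1.12 (adjusted p = 0.00121, SE 0.14). Reads of ribosomal protein genes can be divided uncertainly with their processed pseudogenes. The proteasome, which degrades ubiquitin-tagged proteins, had 22 of 33 genes called higher and 0 lower (median 0.37), beside 30 and 0 in model, with 8 by library size alone, 9 with BXD replicate 2 alone and 11 to 14 without any 1 control replicate or BXD replicate 3. Psma6, of the core particle, had 111, 105 and 107 CPM in control and 184, 217 and 224 CPM in BXD, a log2 fold change of 0.95 (adjusted p = 0.00131, SE 0.12). Psmc1, an ATPase of the cap, rose by 0.82 (adjusted p = 0.00173, SE 0.12). Psmb5, a catalytic subunit, was not called (0.15, 95% interval -0.08 to 0.38).

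Autophagy and lysosome genes were called about as often as all genes, but in the reported fit none was called lower. Of 46 tested, 15 were called higher and 0 lower (median 0.10), 32.6% against 30.3% of all genes (16.1% higher and 14.3% lower). Model had 15 and 2, library size alone gave 8 and 8, and control replicate 3 left out gave 9. Map1lc3b, which encodes the marker LC3B, had 135, 143 and 133 CPM in control and 274, 266 and 283 CPM in BXD, a log2 fold change of 0.998 (adjusted p = 0.000665, SE 0.10). The 2 groups lay far apart with little spread. Gabarapl1, of the same family, rose by 0.73 (SE 0.11) and Sqstm1, the cargo receptor p62, by 0.66 (SE 0.10). Lamp1, the main glycoprotein of lysosomes, was not called (0.23, 95% interval 0.02 to 0.44), but DESeq2 called it higher. Splicing factors moved both ways, with 20 of 47 called higher and 5 lower, 53.2% against 30.3% of all genes. Model had 22 and 10, and library size alone gave 10 and 11. Without control replicate 2 the counts were 13 and 3, and without control replicate 1 or 3 or BXD replicate 2, 14 higher and 2 to 3 lower. U2af1, which reads the end of the intron, had 48.3, 46.4 and 51.2 CPM in control and 104, 113 and 107 CPM in BXD, a log2 fold change of 1.15 (adjusted p = 0.000482, SE 0.09). Srsf3 rose by 0.88 and Srsf6 fell by 0.41, so members of the SR protein family went in opposite directions.

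Heat shock and unfolded protein genes gave mixed counts. In all 40% of the heat shock genes and 48.1% of the endoplasmic reticulum stress genes were called, against 30.3% of all genes (16.1% higher and 14.3% lower). Heat shock genes numbered 20, with 8 called higher and 0 lower, falling to 2 with BXD replicate 2 alone and 1 with the covariate, and to 5 and 4 without control replicates 2 and 3. Bag3, a cochaperone of stretched muscle proteins, had 61.2, 47.3 and 52.4 CPM in control and 230.0, 119 and 114 CPM in BXD, a log2 fold change of 1.53 (adjusted p = 0.00397, SE 0.27). Hspb7, a small heat shock protein of striated muscle, was highest in BXD replicates 1 and 3 (78.6, 26.8 and 58.9 CPM). The inducible chaperone Hspa1a was not called (0.17, 95% interval -1.14 to 1.49). Of 27 endoplasmic reticulum stress genes 9 were called higher and 4 lower, beside 9 and 2 in model, and 4 and 6 with library size alone; without control replicate 2 or 3, 4 were called higher, and without control replicate 1 or 2 or BXD replicate 3, 2 lower. The sensors Atf6 (0.53, SE 0.09) and Ern1 (0.54, SE 0.12) rose, and Ddit3, which encodes the death-promoting factor CHOP, fell by 0.72 (adjusted p = 0.0113, SE 0.16). Hspa5, the chaperone BiP, was not called (0.11, 95% interval -0.31 to 0.53).

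Proliferation genes were lower in BXD than in control. Of 37 cell cycle genes 29 were called lower and 1 higher (median -1.06), beside 27 lower and 0 higher in model, and 21 were called lower with BXD replicate 2 alone, 18 with the covariate and 35 with library size alone. Top2a, the topoisomerase of dividing cells, had 44.4, 42.3 and 37.9 CPM in control, 23.6, 23.0 and 28.6 CPM in model and 18.6, 16.4 and 14.9 CPM in BXD, and fell by 1.32 on the log2 scale (adjusted p = 0.000685, SE 0.14). All BXD libraries lay below all model libraries, but BXD against model did not pass the test (-0.59, 95% interval -0.90 to -0.29, adjusted p = 0.0992). Tpx2, a spindle protein, had 25.1, 22.9 and 22.4 CPM in control and 8.27, 5.81 and 5.06 CPM in BXD, a log2 fold change of -1.88 (adjusted p = 0.000875, SE 0.21). Mki67, the proliferation marker Ki-67, had 59.7, 61.4 and 56.3 CPM in control and 28.5, 21.3 and 13.9 CPM in BXD, a log2 fold change of -1.48 (adjusted p = 0.00225, SE 0.23). Cdc20, which starts anaphase, fell by 1.76 (SE 0.20) and Rrm2, which supplies deoxynucleotides, by 1.59 (SE 0.18). Pcna, the clamp of replication and repair, was the member that rose (0.34), a call lost without control replicate 2 or 3 or BXD replicate 1 or 2 or model replicate 3 (largest adjusted p = 0.124), and with library size alone 0 members were called higher. In bulk tissue, fewer cells of a kind and less of a transcript in each cell cannot be told apart, here and in the results that follow.

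Smooth muscle genes of the contractile apparatus were at or above control, where model lay below it. Of 28 tested, 9 were called higher and 1 lower (median 0.52), 35.7% against 30.3% of all genes (16.1% higher and 14.3% lower). Model had 1 and 14 (median -0.76), and library size alone gave 5 and 1. The count of higher calls was 2 with BXD replicate 2 alone and with the covariate, and 3 without BXD replicate 1, 2 without control replicate 1 and 3 without control replicate 2. Synm, the intermediate filament protein synemin, had 127, 133 and 153 CPM in control and 270.3, 251 and 232 CPM in BXD, a log2 fold change of 0.87 (adjusted p = 0.00129, SE 0.11). The call held with BXD replicate 2 alone (adjusted p = 0.0161). Tpm1, a tropomyosin shared with striated muscle, rose by 0.86, a call lost without control replicate 1 or 2 or BXD replicate 1 (largest adjusted p = 0.0691). Mylk, the kinase that starts smooth muscle contraction, had 668, 742 and 905 CPM in control, 646, 485 and 497 CPM in model and 1331, 1128 and 983 CPM in BXD, a log2 fold change of 0.57 (SE 0.17) whose call was lost without control replicate 1 or 2 or BXD replicate 1 or 2 (largest adjusted p = 0.104).

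The genes most often used to mark smooth muscle were not called against control. Acta2, its actin, had 1334, 1062 and 1650 CPM in control and 2379, 1668 and 1531 CPM in BXD, with overlap between the groups (0.46, 95% interval -0.11 to 1.04). Myh11, its myosin, had 1732, 1600 and 2351 CPM in control and 3099, 2024 and 1821 CPM in BXD (0.29, 95% interval -0.32 to 0.90). In model the same contrasts were -0.78 and -1.18, both called (adjusted p = 0.0356 and 0.00928). BXD exceeded model by 1.25 for Acta2 (adjusted p = 0.0956) and 1.47 for Myh11 (adjusted p = 0.0879), neither past the threshold. Tagln (0.50, 95% interval -0.08 to 1.07) and Cnn1 (0.78, 95% interval 0.06 to 1.49) were not called either, but Cnn1 was called higher without control replicate 3 and with DESeq2. Smtnl2, a smoothelin-like protein, fell by 0.96, a call lost without control replicate 1, 2 or 3 or BXD replicate 2 or 3 (largest adjusted p = 0.0719).

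Calcium and ion channel genes, which set the pacing of lymphatic contraction, mostly did not differ detectably from control, and the direction of the calls depended on the scaling. Of 34 tested 3 were called higher and 2 lower (median -0.05), 14.7% against 30.3% of all genes. Model had 1 and 13, and library size alone gave 0 and 6. Without BXD replicate 1, 8 were called lower, and without control replicate 1 or 3, 0 were called in either direction. Atp2b4, a pump that expels calcium from the cell, had 244, 213 and 219 CPM in control and 164, 143 and 125 CPM in BXD and fell by 0.65, a call lost without control replicate 1, 2 or 3 or BXD replicate 2 or 3 (largest adjusted p = 0.0794). Atp2a3, a pump of the calcium store, fell by 0.73, lost without control replicate 1 or 3 or BXD replicate 2 or 3 (largest adjusted p = 0.0844). Ano1, a chloride channel that paces lymphatic muscle, had 38.6, 31.9 and 31.9 CPM in control and 46.9, 23.1 and 17.2 CPM in BXD and was not called (-0.23, 95% interval -0.95 to 0.48). It was called lower without BXD replicate 1 (-0.76, adjusted p = 0.0177) and was at 0.04 without BXD replicate 3. The pore Cacna1c of the L-type calcium channel (0.27, 95% interval -0.12 to 0.66) and the store channel Ryr3 (-0.26, 95% interval -0.70 to 0.18) were not called. Kcnma1, the large-conductance potassium channel, had 3.83, 3.83 and 3.93 CPM in control, 1.75, 0.896 and 1.37 CPM in model and 6.76, 4.24 and 4.98 CPM in BXD and was not called (0.46, 95% interval -0.16 to 1.09).

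Receptors and signals of vessel tone were called in both directions, as all genes were, with 8 of 30 called higher and 5 lower. In all 43.3% were called, against 30.3% of all genes (16.1% higher and 14.3% lower). The counts were 5 and 9 in model, and 5 and 6 with library size alone. Control replicate 1 left out gave 5 and 2, control replicate 2 and BXD replicate 2 each 5 and 3, and BXD replicate 3 left out 7 and 3. Agtr1a, the angiotensin receptor, had 32.9, 40.8 and 33.5 CPM in control and 71.2, 72.8 and 73.7 CPM in BXD, a log2 fold change of 1.02 (adjusted p = 0.000983, SE 0.12), and model was similar at 71.5, 70.3 and 58.3 CPM. Rgs2, which shortens the signal of constrictor receptors, had 34.9, 35.0 and 37.3 CPM in control, 32.8, 27.1 and 32.8 CPM in model and 65.0, 95.1 and 134 CPM in BXD, a log2 fold change against control of 1.46 (adjusted p = 0.0023, SE 0.23). BXD lay above both other groups for Rgs2 without overlap, and against model the adjusted p was 0.0558. Rock2, a kinase that sustains contraction, rose by 0.75 (SE 0.14). Gucy1a3, a subunit of the enzyme that answers nitric oxide, had 200.5, 236 and 216 CPM in control and 102, 99.2 and 99.0 CPM in BXD and fell by 1.12 (adjusted p = 0.00563, SE 0.21). Its partner Gucy1b3 was not called (-0.44, 95% interval -0.81 to -0.06), but was called lower with upper quartile or library size scaling and without BXD replicate 1 or model replicate 2. The thromboxane receptor Tbxa2r fell by 1.03 (adjusted p = 0.00713). Nos3, which makes nitric oxide in endothelium, had 216, 425 and 312 CPM in BXD against 198, 171 and 215 CPM in control and was not called (adjusted p = 0.0589), but was called higher without BXD replicate 1 (adjusted p = 0.016) or model replicate 1, with DESeq2 and in both added fits.

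Few energy genes were called against control, though most had small positive values. Of 74 nuclear genes of oxidative phosphorylation 3 were called higher and 0 lower, with 69 above 0 and a median of 0.30, beside 65 and 1 in model with a median of 0.93, and 21 were called higher without model replicate 2, which enters the shared estimate of spread, and 13 of 73 with the 6 control and BXD libraries only. With the striated muscle covariate the median was -0.03. The tricarboxylic acid cycle had 3 of 21 called higher, 17 above 0, beside 21 called in model, and 0 without control replicate 2 or 3 or BXD replicate 2 or 3. Fatty acid oxidation had 3 of 27 called higher, 19 above 0, beside 22 called in model, and 0 without control replicate 3; its median was 0.13 and -0.07 with library size alone. Sdha, a subunit shared by the respiratory chain and the cycle, had 481, 358 and 312 CPM in control, 702, 1304 and 612 CPM in model and 462, 463 and 554 CPM in BXD, and was not called against control (0.36, 95% interval -0.26 to 0.99). Atp5b, a catalytic subunit of ATP synthase, was likewise not called (0.43, 95% interval -0.10 to 0.96). No gene of these 3 lists was called for BXD against model, where the medians were -0.62, -0.87 and -0.97. The 3 members called for oxidative phosphorylation were Atp5g1, Atp5g2 and Atp5g3, which encode the same subunit of ATP synthase; Atp5g3 had 146, 153 and 142 CPM in control and 218, 233 and 332 CPM in BXD, a log2 fold change of 0.83 (adjusted p = 0.00701, SE 0.17). Atp5g1 was high in BXD replicates 1 and 3 (62.7, 40.2 and 66.7 CPM), and Atp5g2 lost its call without control replicate 1, 2 or 3 or BXD replicate 2 or 3 or model replicate 1 or 3 (largest adjusted p = 0.152). Pdk4, which closes the entry of pyruvate into the cycle, had 113, 108 and 74.2 CPM in control and 392, 162 and 232 CPM in BXD and rose by 1.42 (SE 0.33), a call lost without control replicate 3 (largest adjusted p = 0.0521). Its value was 0.73 (adjusted p = 0.185) with BXD replicate 2 alone and 0.56 (adjusted p = 0.248) with the covariate. 

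Fat cell genes remained above control. Of 27 adipocyte genes 14 were called higher and 0 lower (median 0.82), beside 24 and 1 in model (median 1.48), while scaling by library size alone or by the upper quartile each gave 10 and 1. With BXD replicate 2 alone 2 were called higher and 1 lower, with the covariate 1 and 1, and without any 1 control replicate or BXD replicate 3 between 7 and 9 higher. Plin4, a coat protein of lipid droplets, had 273, 255 and 275 CPM in control and 1066, 900.4 and 1246 CPM in BXD, a log2 fold change of 2.00 (adjusted p = 0.000528, SE 0.19). Lpl, which releases fatty acids from lipoproteins, had 854, 1029 and 730.0 CPM in control and 2296, 1997 and 2958 CPM in BXD, a log2 fold change of 1.47 (adjusted p = 0.00454, SE 0.27). Adipoq, the adiponectin gene, rose by 1.005 (SE 0.20) and Plin1 by 0.70, the latter lost without control replicate 1, 2 or 3 or BXD replicate 2 or 3 or model replicate 3 (largest adjusted p = 0.123). Pparg, the factor that makes fat cells, was not called (-0.35, 95% interval -0.89 to 0.19). Of 22 genes of brown fat heat production 1 was called higher and 2 lower, 13.6% against 30.3% of all genes, beside 11 and 1 in model. Without BXD replicate 1, 5 were called lower, and 4 with upper quartile or library size scaling and with the covariate, where the median went from 0.19 to -0.39. Leaving out control replicate 1 or 2 or BXD replicate 2 or 3 left 1 called lower, and leaving out model replicate 2 gave 3 called higher. The median was below 0 also without control replicate 3 (-0.07) or BXD replicate 3 (-0.05) and with library size alone (-0.02). The member that rose was Ppargc1a, the coactivator of mitochondrial growth, with 27.0, 15.9 and 12.1 CPM in control and 71.5, 95.1 and 97.9 CPM in BXD, a log2 fold change of 2.27 (adjusted p = 0.00283, SE 0.37). Ucp1, the uncoupling protein, had 862, 945 and 340.2 CPM in control, 1961, 5632 and 2641 CPM in model and 550.1, 939.8 and 1134 CPM in BXD and was not called against control (0.29, 95% interval -0.79 to 1.36). Acot11 fell by 2.16 (SE 0.46) and Ppara, a receptor for fatty acids, by 1.58, the latter lost without control replicate 1 or 2 or BXD replicate 2 or 3 (largest adjusted p = 0.0705).

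Lymphatic endothelial genes were called about as often as all genes. Of 20 tested 4 were called higher and 2 lower (median -0.09), against 16.1% and 14.3% of all genes, beside 3 and 6 in model, and library size alone gave 2 and 3; the higher calls ranged from 1 without control replicate 1 to 5, and were 2 without control replicate 2 or BXD replicate 1 or 2. Lyve1, the hyaluronan receptor of initial lymphatics that macrophages can also carry (gene 293186, chr1:175663266-175676699 in Rnor_6.0), had 85.5, 91.2 and 91.4 CPM in control and 256, 286 and 234 CPM in BXD, a log2 fold change of 1.53 (adjusted p = 0.000692, SE 0.16). All BXD libraries lay above all control libraries, BXD replicate 2 was the highest, and model was alike at 304, 196 and 235 CPM. Of the macrophage list 2 of 24 were called higher and 0 lower, 8.33% against 30.3% of all genes. Its mean log2 CPM was 4.46 to 4.88 in control and 4.71 to 5.24 in BXD. Its member Cd14 rose, by 1.00 to 1.23 with 1 library left out (largest adjusted p = 0.00822). Clec10a rose by 0.51 to 0.73 in those fits and was not called in all of them (largest adjusted p = 0.0818). Its markers Csf1r (-0.20, 95% interval -0.51 to 0.11) and Cd68 (0.12, 95% interval -0.27 to 0.51) were not called. The cells that carried Lyve1 were not tested. Vegfc, the growth factor of lymphatics, fell by 0.88, lost without control replicate 1 or 3 or BXD replicate 2 or 3 (largest adjusted p = 0.0666). Prox1 was not called (-0.67, 95% interval -1.42 to 0.09), and BXD against model was 1.16 (adjusted p = 0.131). Flt4 (0.68, 95% interval 0.11 to 1.25) and Pdpn (0.47, 95% interval 0.00 to 0.94) were not called, but Flt4 was called higher without BXD replicate 3 or model replicate 2, with DESeq2 and with the 6 libraries only.

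In blood endothelium 1 of 25 genes was called higher and 2 lower, 12% against 30.3% of all genes, beside 2 and 4 in model. Library size alone gave 1 and 6, and BXD replicate 3 left out 3 and 2. Aplnr, the apelin receptor of veins and sprouting vessels (gene 83518, chr3:72540538-72544183 in Rnor_6.0), had 59.2, 69.0 and 45.9 CPM in control, 5.08, 5.38 and 7.67 CPM in model and 4.09, 10.1 and 11.2 CPM in BXD, a log2 fold change of -2.77 (adjusted p = 0.00113, SE 0.34), 6.82-fold lower than control. Every stressed library, with or without decoction, lay far below every control library. Erg, an endothelial transcription factor, had 83.6, 89.2 and 99.5 CPM in control and 57.3, 57.9 and 59.6 CPM in BXD and fell by 0.64 (adjusted p = 0.00535, SE 0.12), and Flt1, a receptor that binds VEGF, rose by 0.69 (adjusted p = 0.00576, SE 0.13). Kdr, the main VEGF receptor, was not called (0.15, 95% interval -0.10 to 0.40). Fibroblast and matrix genes gave 2 of 30 higher and 0 lower, 6.67% against 30.3% of all genes, and 1 and 6 with library size alone. Timp3, a protease inhibitor of the matrix, had 655, 603 and 655 CPM in control and 1289, 1374 and 1098 CPM in BXD, a log2 fold change of 0.97 (adjusted p = 0.00118, SE 0.12), and Timp1 rose by 0.85, lost without control replicate 1, 2 or 3 or BXD replicate 1 or 2 (largest adjusted p = 0.105). Col1a1 was not called (-0.55, 95% interval -1.10 to 0.01), but was called lower with library size alone.

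Of 28 cytokine and chemokine genes 9 were called higher and 4 lower, 46.4% against 30.3% of all genes (16.1% higher and 14.3% lower), beside 5 and 7 in model. The counts were 6 and 7 without BXD replicate 1, 5 and 2 without control replicate 2 or 3, and 9 and 2 without BXD replicate 3. The receptor genes Il6r and Osmr of the interleukin 6 family rose. Il6r had 31.2, 38.4 and 37.4 CPM in control and 113, 93.6 and 80.7 CPM in BXD, a log2 fold change of 1.42 (adjusted p = 0.000558, SE 0.14). Osmr, the oncostatin M receptor, had 68.0, 84.5 and 88.7 CPM in control, 148, 98.2 and 118 CPM in model and 247, 249 and 191 CPM in BXD, a log2 fold change of 1.51 (adjusted p = 0.000988, SE 0.18), and the difference from model did not pass the test (adjusted p = 0.0879). Both held with BXD replicate 2 alone, with adjusted p = 0.00657 and 0.0101. Il6 itself was highest in BXD replicate 1, with 26.4, 3.77 and 1.21 CPM against 0.71, 1.43 and 0.911 CPM in control, and its call (3.34) was lost without control replicate 1, 2 or 3 or BXD replicate 1 (largest adjusted p = 0.0944). Csf3, the neutrophil growth factor G-CSF, had 0.142, 0.195 and 0 CPM in control, at or under the floor, and 5.26, 2.43 and 1.66 CPM in BXD (adjusted p = 0.00342). The neutrophil calcium-binding protein genes S100a9 (1.69, SE 0.26) and S100a8 (1.89, SE 0.47) rose with 2 other members of a list of 10 tested genes, Il1r2 and Cxcr2. Of this list 40% were called, all higher, against 16.1% of all genes called higher. Cxcr2 lost its call without control replicate 1 or 3 or BXD replicate 2 or 3 or model replicate 1 or 3 (largest adjusted p = 0.123). Il15, which sustains natural killer cells, had 11.5, 15.8 and 15.4 CPM in control and 7.93, 5.26 and 6.94 CPM in BXD and fell by 1.09 (adjusted p = 0.005, SE 0.20). Il1b was not called (0.03, 95% interval -0.62 to 0.69).

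Immediate early genes, which cells switch on within minutes of a stimulus, were uneven within the BXD group. Of 30 tested 6 were called higher and 1 lower, 23.3% against 30.3% of all genes. The counts were 5 and 4 without BXD replicate 1, 11 and 1 without BXD replicate 3, and 0 with the covariate. Nr4a1, an orphan nuclear receptor, had 821, 111 and 66.0 CPM in BXD against 181, 108 and 107 CPM in control, so BXD replicate 1 stood apart and the gene was not called (adjusted p = 0.241). Fosl1 had 1.49, 1.75 and 1.40 CPM in control and 19.5, 7.69 and 3.70 CPM in BXD, a log2 fold change of 2.72 (adjusted p = 0.0069, SE 0.55), again with BXD replicate 1 highest and no overlap. Maff rose by 1.48 (SE 0.29). Fos (-0.17, 95% interval -1.73 to 1.39) and Egr1 (0.46, 95% interval -0.70 to 1.63) were not called, and without BXD replicate 1 Fos was called lower (-1.59, adjusted p = 0.0254). Ptgs2, the inducible prostaglandin synthase, had 20.2, 9.09 and 15.9 CPM in control and 7.35, 4.00 and 3.40 CPM in BXD and fell by 1.61, a call lost without control replicate 1 or BXD replicate 2 (largest adjusted p = 0.0574).

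The 12 largest falls, by the same rule as the rises, were Pidd1, Klrc3, Robo3, gene-Katnbl1, Ccl5, Klhdc7a, Cfap99, Il12rb1, Cxcr3, Spint1, Gbp3 and Lrrc3b. Ccl5, a chemokine of activated T cells, had 8.16, 27.5 and 19.1 CPM in control and 2.17, 0.392 and 1.36 CPM in BXD and fell by 3.80 (adjusted p = 0.00335, SE 0.64). Klrc3, a natural killer cell receptor, had 4.54, 6.75 and 3.79 CPM in control and 0.0835, 0.0785 and 0.226 CPM in BXD, 35.8-fold lower, and Cxcr3, a chemokine receptor of T helper cells, had 1.85, 5.91 and 3.22 CPM in control and 0.25, 0.549 and 0.453 CPM in BXD, 8.56-fold lower. The lymphocyte list had a median of 0.14, with 13 of 26 members above 0, 0 called higher and 2 lower, fewer than the 14.3% of all genes. The 2 were Nkg7 and Cd2, of which Nkg7 lost its call without control replicate 2 or 3 or BXD replicate 1 or 2 (largest adjusted p = 0.0896) and Cd2 without control replicate 2 or 3 or BXD replicate 1 or 3 (largest adjusted p = 0.0892). Cd3e, the shared chain of the T cell receptor, was not called (0.39, 95% interval -1.43 to 2.197). Pidd1, which encodes a death domain protein of the p53 response, had 192 counts over the control libraries and 0 over the BXD libraries, at least 55.5-fold lower when 3 counts over the group are taken as the floor. Of 38 interferon response genes 6 were called higher and 5 lower, 28.9% against 30.3% of all genes. The counts were 1 and 14 in model and 5 and 9 with library size alone. Control replicates 2 and 3 left out gave 3 and 2 higher with 2 lower each. Control replicate 1 or BXD replicate 1 left out gave 5 and 8, and BXD replicate 2 left out 10 and 2. Ifit3, an interferon-induced antiviral gene, rose by 1.88 (adjusted p = 0.00428, SE 0.34) with BXD replicate 1 the highest at 74.1, 33.4 and 30.6 CPM.

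The neuropeptide galanin, encoded by Gal, was almost absent from control vessels. It had 2 counts over the 3 control libraries and 504 over the 3 BXD libraries, a ratio of 290.4 after scaling to library size (exact 95% interval 80.0 to 2404, counting error only). By library it was at 0.071, 0 and 0.0701 CPM in control, 4.91, 3.58 and 3.57 CPM in model and 16.1, 17.5 and 6.64 CPM in BXD, and the adjusted p was 0.000482, or 0.00221 with BXD replicate 2 alone. Every stressed library was above every control library, and the BXD libraries were above the model libraries without passing the test (adjusted p = 0.0963). On the nerve and glia list 1 of 20 genes was called higher, Gal, and 2 lower, 15% against 30.3% of all genes, beside 2 and 10 in model. Sox10, the factor of Schwann cells, had 31.7, 20.6 and 16.5 CPM in control, 2.10, 3.67 and 2.66 CPM in model and 5.26, 11.9 and 11.4 CPM in BXD and fell by 1.26, a call lost without control replicate 1 or 2 (largest adjusted p = 0.095). Dbh, which makes noradrenaline and had 11.2, 76.8 and 1.33 CPM in the controls, was not called.

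The 9 genes called for BXD against model stood in different places against control. Mylk, Kcnma1, Ucp1 and Sox10, whose printed model and BXD values lay apart, were not among these 9, nor were Elovl6 and Cyp2e1, described further on. Synm, Csf2rb and Id4 exceeded both groups. Csf2rb, the shared receptor chain for GM-CSF and related cytokines, had 42.3, 37.2 and 42.5 CPM in control, 37.8, 24.1 and 37.0 CPM in model and 101, 142 and 100.02 CPM in BXD, a log2 fold change of 1.49 (SE 0.20) against control and 1.80 (SE 0.20) against model, with adjusted p = 0.00135 and 0.032. Id4, an inhibitor of helix-loop-helix factors, had 29.0, 36.0 and 32.6 CPM in control and 79.4, 64.7 and 54.1 CPM in BXD, a log2 fold change of 1.02 (adjusted p = 0.00194, SE 0.15). Tmod1, which caps actin filaments, and Wnk2, a kinase that regulates chloride transport, were called above both groups too, but against control Tmod1 lost its call without control replicate 1 (largest adjusted p = 0.0507) and Wnk2 without control replicate 1, 2 or 3 or BXD replicate 1 or 3 (largest adjusted p = 0.0839). LOC102555341, with no assigned name, was below control in model and not called against control in BXD (0.37, 95% interval -0.22 to 0.95).

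Wipf3 and Asap3 rose above model yet stayed below control. Wipf3, a regulator of actin assembly, had 55.9, 55.6 and 59.4 CPM in control, 14.8, 11.6 and 11.6 CPM in model and 24.9, 24.6 and 24.2 CPM in BXD, 2.32-fold lower in BXD than in control (log2 fold change -1.21, SE 0.12, adjusted p = 0.000542). Asap3 encodes a GTPase-activating protein, which makes Arf proteins hydrolyse GTP and so turns them off. Asap3 had 48.3, 53.3 and 52.6 CPM in control, 10.5, 11.4 and 11.3 CPM in model and 20.6, 28.6 and 27.6 CPM in BXD. That was 2.01-fold lower in BXD than in control (log2 fold change -1.004, SE 0.14, adjusted p = 0.00143). The 3 groups did not overlap for either gene, and BXD lay between the others. Wbp11l1, named for its likeness to a splicing factor gene whose reads it may share, had 6.96, 8.51 and 6.80 CPM in control, 99.4, 122 and 99.8 CPM in model and 11.1, 19.5 and 14.7 CPM in BXD. It stayed 2.03-fold above control (log2 fold change 1.02, SE 0.20, adjusted p = 0.00657) with a log2 fold change against model of -2.82 (SE 0.20, adjusted p = 0.00236). Between 1 and 154 genes were called for BXD against model when 1 library was left out, with 154 without BXD replicate 1, 112 without BXD replicate 2 and 1 to 3 without BXD replicate 3 or any 1 control or model library, so which genes pass depends on single libraries.

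**Figure D4:**
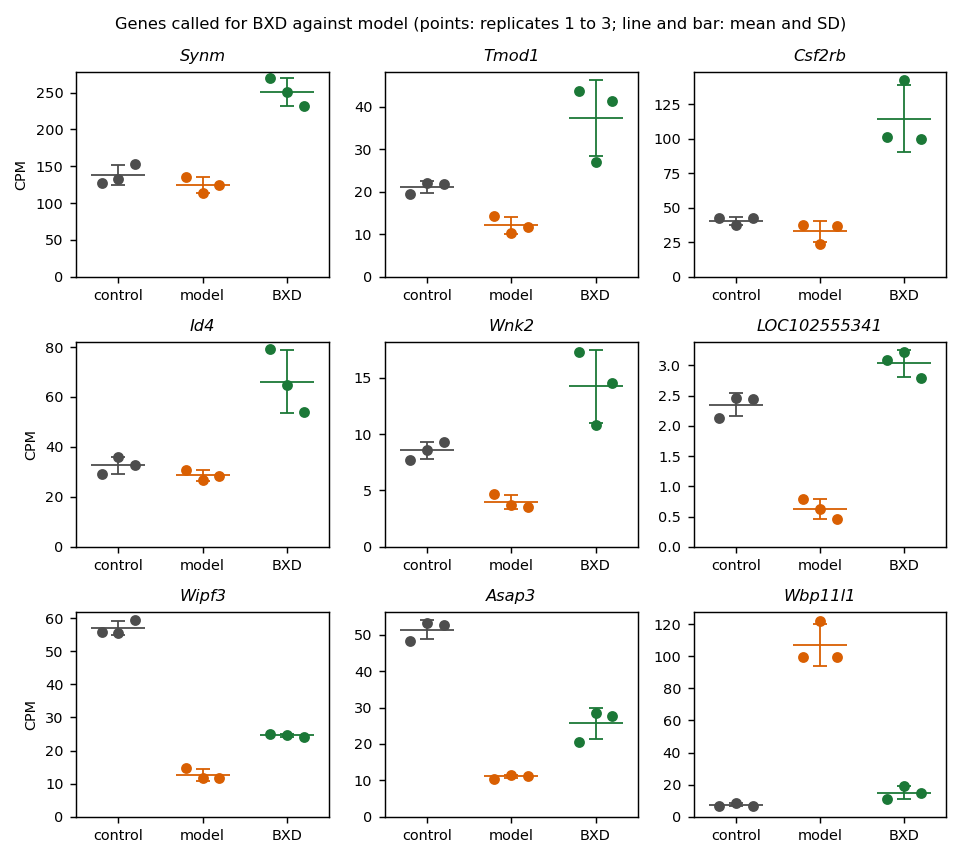
CPM (vertical axes, each from 0) of the 9 genes called for BXD against model, in the 9 libraries by group; points are replicates 1 to 3, and lines with bars are the mean and SD. Synm, Csf2rb and Id4 in BXD lie above control and model, Wipf3 and Asap3 lie between them, and Wbp11l1 in BXD (11.1 to 19.5 CPM) lies just above control and far below model.

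The added fits moved some list medians little and others across 0. With BXD replicate 2 alone and with the covariate, the medians were 0.83 and 0.72 for the glucocorticoid list, 0.79 and 0.75 for the metallothionein list, 0.53 and 0.56 for ribosome biogenesis and -1.05 and -1.02 for the cell cycle. The median of the tricarboxylic acid cycle went from 0.27 to 0.17 and -0.19, and that of fatty acid oxidation from 0.13 to 0.05 and -0.31. Of the genes described above that kept their call with each library left out, the call was lost with BXD replicate 2 alone for Lpl, Adipoq, Acot11, Gucy1a3, Tbxa2r, Erg, Atp5g1, Hspb7, P4ha1, Txnip, S100a8, Ciart, Cxcr3, Il12rb1 and Cfap99. The genes described above that lost their call without 1 library lost it with BXD replicate 2 alone too, except Slc2a1 and Il6. With the covariate, all genes in the list that ends with Cfap99 lost their call except Txnip. Others that had kept it with each library left out lost it with the covariate. They were Sgk1, Rock2, Atp5g3, Ddit3, Atf6, Maff, Fosl1, Bag3, Ifit3, Pidd1, Robo3 and gene-Katnbl1. With library size alone every median moved down by about the shift of all genes.

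**Figure D5:**
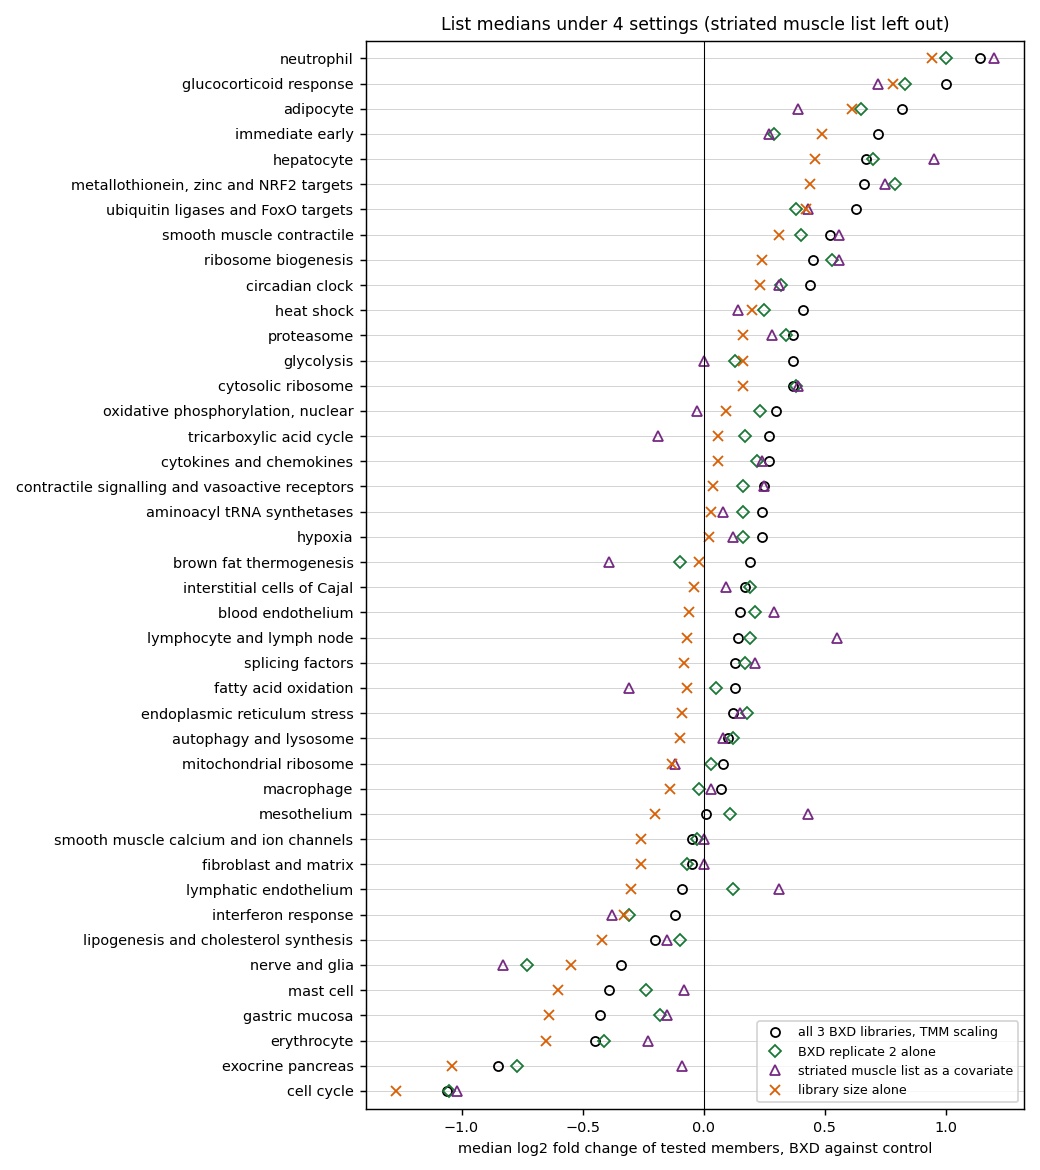
Median log2 fold change of BXD against control (horizontal axis) of the tested members of each list under 4 settings: all 3 BXD libraries, BXD replicate 2 alone, the striated muscle covariate, and library size alone; the striated muscle list is left out. The cell cycle median stayed between -1.27 and -1.02 and the glucocorticoid median between 0.72 and 1.00, while lists near 0 changed sign between settings.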

How the data were processed

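Poly(A) RNA of rat gastric lymphatic vessels was sequenced on an Illumina HiSeq2500, as the labels' protocols state. Bowtie2 2.2.5, HISAT2 2.2.4 and the build Rnor_6.0 are listed in the submitters' processing notes. Which tool made the counts was not given in those notes or labels. Since no stranded kit is named, reads of a gene and of one overlapping it on the other strand may be mixed. For 18964 genes the authors deposited estimated counts, which need not be whole (88.8% were, within 1e-09), and TPM values in the same file, per the file headers. A second deposited table gives the authors' log2 fold changes and q-values, per its headers. The authors' deposited table held 4919 genes that had q under 0.05 for BXD against control, 2758 higher and 2161 lower, and 4178 of these were called here with the same sign. A further 54 columns of per-sample values were not used here, and an omeprazole group named in the protocol was not analysed here.

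Groups came from the sample titles. Estimated counts were rounded, filtered with filterByExpr (14643 genes) and scaled by trimmed means of M-values (factors 0.932 to 0.985 in BXD and 1.09 to 1.15 in control). All 9 libraries entered 1 robust quasi-likelihood fit in edgeR 4.0.16 (with limma 3.58.1 under R 4.3.3) with group as the only term, leaving 6 residual degrees of freedom and a biological coefficient of variation of 23.3%. P-values were adjusted over all genes by Benjamini-Hochberg at a threshold of 0.05. The SE is the size of the log2 fold change divided by the square root of F, and intervals are 95% intervals from the same fit. Log2 CPM used a prior count of 2. No pair of replicates agreed within sampling noise (chi-square per degree of freedom 14 to 52.1), so none was merged, which does not show that they came from separate rats. The fit was also run on simulated counts. The outcome of that run is not given here, so no conclusion about the fit to these libraries, uneven within BXD, is drawn from it. Promoters were RefSeq's, matched by gene ID for 11445 of the tested genes, and motifs were searched on both strands. TPM served only to rank levels.

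Genes to be named were the 12 with the largest rise, the 12 with the largest fall, the anchor genes and called members with the smallest p of each list, genes called for BXD against model and genes at 0 counts in a group, and fewer are named in places. The members and gene lists were chosen with earlier results of these data known, and some genes belong to more than 1 list. Alternatives were other scalings, DESeq2 1.42.0, limma-voom, other filters, 6 libraries only, a replicate block, and each library left out. BXD replicate 2 as the lone BXD library and the striated muscle covariate were chosen after seeing the data. Some genes are not reported here.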

Additional observations from a re-analysis of the deposited data

How the results depend on the processing

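The count of 4444 genes called for BXD against control was 2352 with BXD replicate 2 alone, 1869 with the striated muscle covariate and 2728 to 4775 when 1 library was left out. Higher calls, 2355 in all, were 1370 with library size alone, 1334 with BXD replicate 2 alone, 1066 with the covariate and 1439 to 2594 with 1 library left out. Lower calls, 2089 in all, were 3602, 1018, 803 and 1289 to 2253 in the same order. Calls of at least 2-fold, 1550 in all, were 930 with the covariate and 1142 to 1573 with 1 library left out. For BXD against model the 9 calls became 1129 with DESeq2, 3 with limma-voom, 16 with no filter on low counts, 4 with BXD replicate 2 alone, 5 with the covariate and 1 to 154 with 1 library left out. Model against control gave 4317 to 6890 calls when 1 library was left out. The cause of these changes was not tested beyond their construction: BXD replicate 2 alone and each library left out use fewer samples, and library size alone moves the median of all genes. Of 281 named genes (280 with DESeq2 and 270 with 6 libraries only) none that was called, in the reported fit or under the alternative, had the opposite sign in the other. Uncalled genes did change sign, among them Nr4a1 (-0.57 to 1.82), Dbh (-1.82 to 1.64), Fos (-1.59 to 0.29), Cd3e (-0.60 to 0.72) and Ano1 (-0.76 to 0.04) with 1 library left out. Counts of named genes that lost their call were 26 with library size alone, 93 with BXD replicate 2 alone and 110 with the covariate. The labels do not say whether numbers shared between groups pair the libraries, and the reported fit did not pair them. Correlations of same-numbered control and BXD deviations were 0.055, -0.048 and -0.239, and those of different numbers ran from -0.123 to 0.205. With 3 libraries a group these values cannot show whether a pairing exists. With the replicate block, calls against control numbered 3663 and calls against model 1. The precision is limited by 3 libraries a group and by the floor of 3 counts, 0.195 to 0.269 CPM.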

Other observations

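Of 32 tested lipid and cholesterol synthesis genes 3 were called higher and 2 lower, 15.6% against 30.3% of all genes. Library size alone gave 3 and 8, and upper quartile scaling 3 and 7. Without control replicate 1 the counts were 4 and 1 with a median of 0.08, without control replicate 3, 1 and 5 with a median of -0.40, and without BXD replicate 1, 2 and 4, against a median of -0.20 with all libraries. Without control replicate 2, 1 was called higher and 2 lower, and without BXD replicate 3, 3 and 1. Stard4, a carrier of cholesterol, had 48.4, 48.6 and 45.5 CPM in control and 104, 91.0 and 62.9 CPM in BXD, a log2 fold change of 0.86 (adjusted p = 0.00836, SE 0.18). The calls of Mvd and, further on, of Etv1 were lost with BXD replicate 2 alone, and that of Mvd also with the covariate. Mvd, an enzyme of the mevalonate pathway, fell by 1.16 (adjusted p = 0.00535, SE 0.22). Fasn, the fatty acid synthase, had 5849, 2172 and 2057 CPM in control and 2081, 1053 and 748 CPM in BXD and was not called (adjusted p = 0.0604), control replicate 1 being the highest, but was called lower without BXD replicate 1, with upper quartile or library size scaling and with the replicate block. Elovl6, which lengthens fatty acids, was at 0 counts in the 3 control libraries, at 15.9, 14.8 and 4.03 CPM in model and at 0.167, 0.863 and 1.51 CPM in BXD, at least 12.7-fold higher in BXD against 3 counts over the control group, and its call was lost without control replicate 1, 2 or 3 or BXD replicate 2 or 3 (largest adjusted p = 0.0614).

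Cyp2e1, an alcohol and ketone oxidising enzyme best known from liver and also made in fat, had 10.4, 20.3 and 35.7 CPM in control, 57.9, 77.6 and 63.0 CPM in model and 254, 115 and 109 CPM in BXD, a log2 fold change of 2.85 (adjusted p = 0.00322, SE 0.47). Of 13 hepatocyte markers with counts deposited, 6 were tested and 3 called higher, Cyp2e1, Hp and Alb, of which Alb lost its call without control replicate 1, 2 or 3 or BXD replicate 2 or 3 (largest adjusted p = 0.0777), while Apoa1 stayed at 1.28, 0.195 and 1.33 CPM in control and 1.34, 0.941 and 0.528 CPM in BXD. Hba-a1, a haemoglobin chain, fell by 1.31 (adjusted p = 0.00565, SE 0.25), and Hba1 was not called (-0.53, 95% interval -1.18 to 0.12), and reads of these near-identical genes may be divided uncertainly. Etv1, a factor of interstitial cells of Cajal, fell by 1.07 (SE 0.24), and Kit, their defining receptor, was not called (-0.39, 95% interval -0.77 to -0.01), but was called lower with library size alone and without model replicate 2. Glycam1, a marker of lymph node venules, had 0.071, 0.39 and 0.35 CPM in control, 1.84, 32.7 and 92.8 CPM in model and 34.4, 1.49 and 3.40 CPM in BXD and was not called for BXD against control (adjusted p = 0.0554), but was called higher without BXD replicate 2 or model replicate 1 or 3, with the 6 libraries only and with DESeq2 (adjusted p = 0.00116).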
